A study of Mus musculus with 12 samples.

Results

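The genes described here encode the acid hydrolases of the lysosome, proteins of its membrane, its calcium channels, subunits of its proton pump and the transcription factors that drive these genes. They are a list of 38 mouse genes chosen by name. A probeset was found for 37 of them, out of 18193 genes with a probeset in the table, and Cd63 is not analysed here. Each gene was read from the probeset with the highest mean over 11 of the 12 arrays. The values are log2 levels, so a difference of 1 is a 2-fold change.

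The cells were peritoneal macrophages from mice injected with thioglycollate, an irritant that draws macrophages into the peritoneal cavity. They came from wild-type mice, from IRAK2 knockout (KO) mice and from IRAK1/IRAK2 KO mice, called the double knockout below. IRAK1 and IRAK2 are kinases that relay signals from Toll-like receptors. Cells were left unstimulated (0 h) or given 100 ng/ml MALP-2, a bacterial-type lipopeptide sensed through TLR2, for 2, 4 or 8 h. Each genotype and time has 1 array, and strain, age, sex and number of mice are not given in the sources used here. The comparisons ask how the lysosomal genes respond to MALP-2 and how their levels differ when IRAK2, or both kinases, are missing.

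Lysosomes degrade proteins, lipids, glycans and nucleic acids with enzymes that need an acid interior, which the vacuolar proton pump (V-ATPase) maintains. Macrophages hold many lysosomes, which digest what the cells engulf and prepare antigens for presentation. Many lysosomal genes share a promoter element, the CLEAR element, a palindrome around CACGTG to which TFEB, TFE3 and MITF bind.

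The promoters of 32 of the 37 genes were found among the RefSeq promoter windows of GRCm38.p6, each of which spans the start of a gene. The 7 letters TCACGTG, searched on both strands, were in the windows of 9 of these 32 genes (28.1%), against 4.29% of 27025 genes with a window and 3.77% of 32851 windows. Of the other lysosomal genes listed for the comparisons below, 88 had a window, and 22 of these genes (25.0%) held the 7 letters. The 9 genes were Ctsa, Ctsd, Gla, Glb1, Gaa, Lamp1, Mcoln1, Atp6v0d1 and Atp6v1a. The 6-letter core CACGTG, which lies inside TCACGTG, was in 11 of 32 (34.4%, against 8.09% of genes), and the 8-letter palindrome TCACGTGA in 6 of 32 (18.8%, against 1.12%). TCATGTG, an E-box variant that the same factors can bind, was in 7 of 32 (21.9%, against 4.31%). A match is only the presence of these letters in the window, and base composition was not matched between the windows compared. The stretches of 8 genes are shown because they carry the matches, which are single in Glb1 and Gaa and repeated in Lamp1, Mcoln1 and Gla. Capitals mark TCACGTG or its reverse complement. Atp6v0d1 is not shown because its match crosses the start.
Ctsa, chr2:164833745-164833772, plus strand: acaatgagcaaactgTCACGTGAtgcag
Ctsd, chr7:142387904-142387941, minus strand: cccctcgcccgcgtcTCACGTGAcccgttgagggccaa
Gla, chrX:134601178-134601248, minus strand: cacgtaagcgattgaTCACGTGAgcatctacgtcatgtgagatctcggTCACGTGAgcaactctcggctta
Glb1, chr9:114401014-114401050, plus strand: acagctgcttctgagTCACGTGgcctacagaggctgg
Gaa, chr11:119267807-119267843, plus strand: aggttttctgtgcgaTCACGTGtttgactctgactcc
Lamp1, chr8:13159084-13159160, plus strand: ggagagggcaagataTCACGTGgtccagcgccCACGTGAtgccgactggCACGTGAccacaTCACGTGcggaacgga
Mcoln1, chr8:3500432-3500495, plus strand: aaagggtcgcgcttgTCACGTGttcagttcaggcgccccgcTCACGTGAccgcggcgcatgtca
Atp6v1a, chr16:44139369-44139406, minus strand: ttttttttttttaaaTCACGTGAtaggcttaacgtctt

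The double-knockout 0 h array stood apart and was left out of all comparisons unless stated. Its correlations with the remaining arrays were 0.764 to 0.804, those among the remaining 11 were at least 0.954, and 31 of the 37 lysosomal genes lay below all 3 stimulated double-knockout arrays on it. The 3 stimulated double-knockout arrays also differed in the 5′ minus 3′ difference of control probesets, a measure used for RNA quality. On the double-knockout 0 h array this difference was -2.54 for actin and -2.45 for Gapdh, less negative than on any other array. For actin it was -4.68 to -3.87 on the 3 stimulated double-knockout arrays and -3.72 to -3.18 on the wild-type and IRAK2 KO arrays. For Gapdh it was -5.90 to -4.36 against -3.84 to -3.42. The Irak2 probeset lay at 5.77 to 6.69 in wild type, 4.65 to 5.63 in the IRAK2 KO and 4.61 to 5.19 in the double knockout. The ranges of all 4 Irak1 probesets were lowest in the double knockout, as at 7.30 to 7.48 against 7.99 to 8.21 in wild type for 1 of them. Probe positions relative to the deleted parts are not given in the sources used here. Of 7 macrophage markers with a probeset, all were at or above the floor (3.83, the median over the 11 arrays) on every wild-type and IRAK2 KO array, and 6 were on every stimulated double-knockout array. Markers of other cells were present in part. Of those with a probeset, 3 or 4 of 8 for neutrophils, 1 to 5 of 6 for B cells, 0 or 1 of 7 for T and NK cells, 2 of 8 for eosinophils and mast cells, 1 or 2 of 6 for dendritic cells and 5 of 8 for mesothelium and stroma were at or above the floor on every array of a genotype, taken at 0 h or over 2 to 8 h. At 0 h in wild type, Csf3r, the receptor of a neutrophil growth factor, read 6.92, Ighm, the heavy chain of IgM, 7.92, Siglecf, a lectin of eosinophils, 7.30, and the stromal genes Col1a1 and Pdgfra 10.71 and 7.93. Under the floor on every one of the 11 arrays were Ngp, Cxcr2, Elane and Mpo of the neutrophil list, Cd3d, Cd3g, Cd8a and Ncr1 of T and NK cells, Prg2, Epx, Ccr3, Mcpt4 and Ms4a2 of eosinophils and mast cells, Flt3, Xcr1, Ccr7 and Cd209a of dendritic cells, Pax5 of B cells, and Msln and Krt19 of mesothelium.

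On MALP-2, most lysosomal genes fell. No array is of cells kept for 2, 4 or 8 h without MALP-2, so MALP-2 and time in culture cannot be told apart. Of the 37 genes, 26 fell, 5 rose and 6 did not pass the test, when the 6 stimulated arrays of wild type and IRAK2 KO were set against their 2 arrays of 0 h (limma, adjusted p under 0.05 over 10799 genes). Among all genes tested 28.2% fell and 18.9% rose, and the median difference was -0.44 for the lysosomal genes against -0.06 for all genes. With arrays centred on their medians 22 of the 37 genes fell and 5 rose, while the split over all genes changed from 3040 lower and 2037 higher to 2508 and 2477. On all 6 stimulated arrays, 25 genes lay below both 0 h arrays, which 24.5% of all genes did, and 4 lay above both, which 16.0% did. With 1 array per group the p-values weigh whether a difference is constant over the times and both genotypes, not the spread between mice. In whole-culture RNA, fewer cells of a type and less RNA per cell cannot be told apart. When the double-knockout arrays with their 0 h array were added, 1 lysosomal gene fell and 2 rose. The calls of Ctsd, Psap, Cd68, Mcoln1, Tfe3, Mitf, Atp6v1h and Atp6ap1 were lost in at least 1 of the other alternatives. The mean of the macrophage markers was 9.32 and 9.35 at 0 h and 9.25 to 9.52 after MALP-2. Single markers changed in it, with Cd14 (3.45) and Adgre1 (0.83) higher and Mertk (-1.98) and Fcgr1 (-1.80) lower. Markers of other cells moved in the same fit. Of 3 tested neutrophil markers, Mmp9 (1.90) and Camp (0.82) rose, and the mean of that list was 4.28 and 4.22 at 0 h and 4.30 to 4.92 after MALP-2. Both tested markers of eosinophils and mast cells, Siglecf (-0.82) and Cpa3 (-0.53), fell. Of the osteoclast-linked markers Acp5 (1.66) and Dcstamp (0.76) rose and Itgb3 (-1.13) fell, and of 2 tested dendritic markers Zbtb46 (0.55) rose. None of the 4 B cell, 1 T and NK cell or 5 mesothelial and stromal markers tested passed. The part of these markers in the lysosomal values was not tested.

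**Figure D1:**
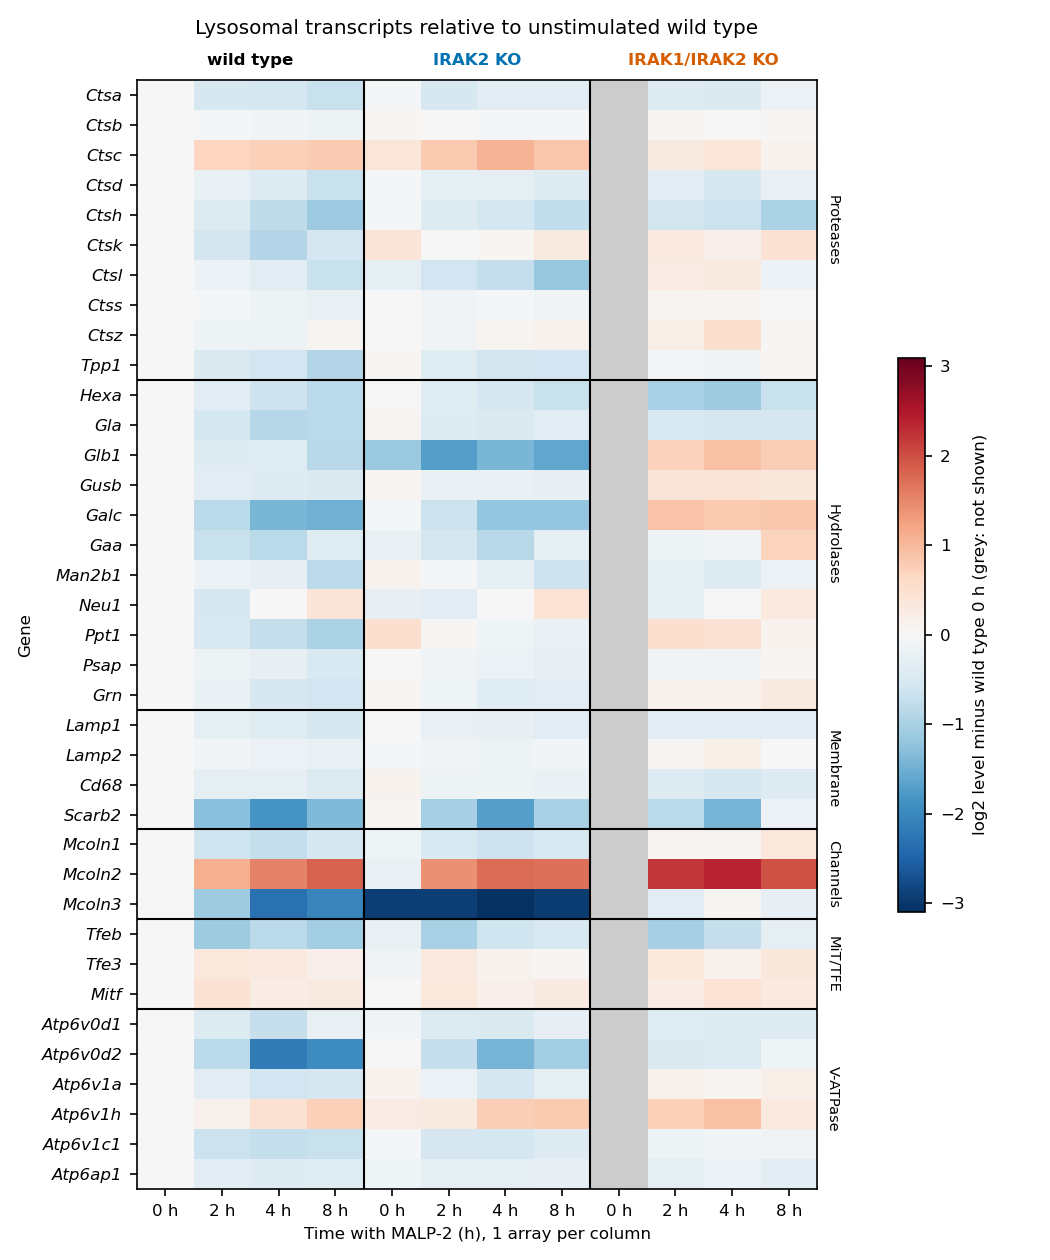
Log2 level of each of the 37 genes (rows, grouped by role) on each array (columns, by genotype and hours with MALP-2) minus its level on the wild-type 0 h array, blue for lower and red for higher. Most rows turn blue from 0 h to 8 h in wild type and the IRAK2 KO, Mcoln2 and Ctsc turn red, and the double-knockout 0 h array is greyed out.

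Among the proteases, 6 of 10 fell, 1 rose and 3 did not pass. Tpp1, a tripeptidyl peptidase, read 10.94 at 0 h and 10.48, 10.35 and 10.02 at 2, 4 and 8 h in wild type, and 11, then 10.56, 10.38 and 10.35 in the IRAK2 KO. All 6 stimulated values were below both unstimulated ones, a fall of 0.62 ± 0.09 (SE; adjusted p = 0.00115, limma). Ctsh, an aminopeptidase of the cathepsin family, read 11.71, 11.29, 10.92 and 10.59 from 0 h to 8 h in wild type and 11.64, 11.32, 11.16 and 10.94 in the IRAK2 KO. It went down at each step in both genotypes and fell by 0.64 ± 0.11 (adjusted p = 0.00171, limma). The endopeptidases Ctsl (-0.47), Ctsk (-0.48) and Ctsd (-0.35) and the carboxypeptidase Ctsa (-0.47) also fell.

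Ctsc was the protease that rose. It encodes dipeptidyl peptidase I, which activates granule serine proteases. Its level was 8.10, 8.77, 8.84 and 8.88 at 0, 2, 4 and 8 h in wild type and 8.47, 8.91, 9.16 and 8.95 in the IRAK2 KO. Every stimulated array was above both 0 h arrays, a rise of 0.63 ± 0.10 (adjusted p = 0.0011, limma), and 2 further Ctsc probesets differed by 2.10 and 1.08. Ctsb, an abundant cathepsin, did not pass by its brightest probeset, which lay between 13.44 and 13.65 over the 11 arrays and differed by -0.09. Its 4 other probesets, at mean levels of 10.82, 10.58, 10.42 and 4.45, were all lower after MALP-2, by -0.61, -0.64, -0.43 and -0.59. Of the other proteases that did not pass, Ctss differed by -0.12 (95% interval -0.32 to 0.08) and Ctsz by -0.03 (-0.24 to 0.18).

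Of the 11 glycosidases and other hydrolases with their activators, 10 fell and none rose, with a median of -0.49. Galc, which removes galactose from galactosylceramide, read 8.57, 7.74, 7.15 and 7.07 from 0 h to 8 h in wild type and 8.53, 7.90, 7.38 and 7.38 in the IRAK2 KO. The unstimulated values were alike and every stimulated value was lower, a fall of 1.11 ± 0.10 (adjusted p = 6.73e-05, limma). Ppt1, which removes palmitate from proteins, read 7.72, 7.25, 6.98 and 6.74 in wild type and 8.23, 7.76, 7.58 and 7.51 in the IRAK2 KO. Its stimulated IRAK2 KO value at 2 h exceeded the unstimulated wild-type value, so the arrays overlap across genotypes although each genotype went down, by 0.67 ± 0.09 (adjusted p = 0.000647, limma).

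Gla (-0.63), which splits alpha-galactosides, the beta-hexosaminidase subunit Hexa (-0.57), Glb1 (-0.49), which splits beta-galactosides, and Gaa (-0.49), which splits glycogen, fell by similar amounts. Man2b1, an alpha-mannosidase (-0.44), Grn, the precursor of granulins (-0.39), Gusb, the beta-glucuronidase (-0.35), and Psap, the precursor of saposins (-0.25), fell less. Neu1, a sialidase, was the member of the group that did not pass, at 0.13 (95% interval -0.10 to 0.36). It was lower at 2 h than at 0 h and higher at 8 h in both genotypes, reading 5.47, 4.97, 5.49 and 5.88 in wild type and 5.21, 5.11, 5.47 and 5.89 in the IRAK2 KO.

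Of the membrane proteins, Scarb2, the receptor that carries beta-glucocerebrosidase to the lysosome, showed the largest fall of the 37 genes by their brightest probesets, with Atp6v0d2 close behind. Its level was 9.82, 8.53, 8.00 and 8.44 at 0, 2, 4 and 8 h in wild type and 9.85, 8.80, 8.12 and 8.82 in the IRAK2 KO. It was lowest at 4 h in both and fell by 1.39 ± 0.10 (adjusted p = 2.76e-05, limma). A second Scarb2 probeset, at a mean level of 5.59, differed by -0.56. Lamp1, a main glycoprotein of the lysosomal membrane, fell by 0.33 and the macrophage glycoprotein Cd68 by 0.30. Lamp2, the other main glycoprotein, did not pass by its brightest probeset, at -0.13 (95% interval -0.32 to 0.07), while its 3 other probesets, at mean levels of 11.03, 10.61 and 9.69, differed by -0.28, -0.49 and -0.45.

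The 3 mucolipin channels, which release calcium and other cations from endosomes and lysosomes, did not move together. Mcoln1 read 7.97, 7.36, 7.24 and 7.43 in wild type and 7.83, 7.49, 7.32 and 7.49 in the IRAK2 KO, a fall of 0.51 ± 0.09 (adjusted p = 0.00248, limma). Mcoln2 read 5.23, 6.34, 6.76 and 7.07 in wild type and 5.01, 6.65, 6.95 and 6.94 in the IRAK2 KO, a rise of 1.66 ± 0.12 (adjusted p = 3.19e-05, limma). All 6 stimulated Mcoln2 values lay above both unstimulated ones, and it was the single gene of the 37 at least 2-fold above 0 h on any wild-type array, as were 5.41%, 5.34% and 5.06% of all genes at 2, 4 and 8 h. Mcoln3 read 6.19, 5.09, 3.87 and 4.15 in wild type, nearing the floor of 3.83, while all 4 IRAK2 KO arrays lay under the floor at 3.12 to 3.28. Its joint difference of -0.93 did not pass (adjusted p = 0.0679, limma), and since the IRAK2 KO values are at background the wild-type course rests on 1 array per time.

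The MiT/TFE factors split. Tfeb read 5.45, 4.36, 4.62 and 4.38 in wild type and 5.21, 4.45, 4.83 and 4.98 in the IRAK2 KO, a fall of 0.73 ± 0.15 (adjusted p = 0.0045, limma). Its lowest value was at 2 h in both genotypes. Tfe3 rose by 0.26 (adjusted p = 0.0334, limma) and Mitf by 0.30 (adjusted p = 0.0196, limma). Mitf read 11.45, 11.89, 11.69 and 11.74 in wild type and 11.43, 11.77, 11.61 and 11.72 in the IRAK2 KO, so that its 2 h value was the highest in both. These are levels of mRNA, and the factors are known to be controlled largely by phosphorylation and location in the cell, which the arrays do not measure.

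Of the 6 V-ATPase genes, 5 fell and 1 rose. Atp6v0d2, the d2 subunit of the membrane sector, abundant in macrophages and osteoclasts, read 10.88, 10.04, 8.72 and 8.93 in wild type and 10.87, 10.17, 9.43 and 9.80 in the IRAK2 KO. It fell by 1.36 ± 0.17 (adjusted p = 0.000433, limma), and a second probeset gave -1.54. Its widely expressed counterpart Atp6v0d1 fell by 0.38, the catalytic subunit Atp6v1a by 0.47, the C subunit Atp6v1c1 by 0.57 and the accessory protein Atp6ap1 by 0.26. Atp6v1h, the regulatory H subunit, rose by 0.40 ± 0.09 (adjusted p = 0.00699, limma), from 7.74 to 7.88, 8.21 and 8.49 in wild type and from 8.00 to 8.01, 8.50 and 8.54 in the IRAK2 KO. A second Atp6v1h probeset above the floor, at a mean level of 4.55, differed by 0.02.

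Of the 9 genes with TCACGTG in the promoter window, all fell, as did 14 of the 23 others with a window, and none of the 9 genes with a window that did not fall held it. The other motifs were split less sharply. The core CACGTG was in 10 of the 23 genes that fell and in 1 of the 9 that did not, Mcoln2, which rose. TCATGTG was in 6 of the 23 that fell and in 1 of the 9 that did not, Ctss. These counts describe the windows, with no test.

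The time course was also read between the stimulated arrays. From 2 h to 8 h, 7 of the 37 genes fell further and 3 rose (limma, adjusted p under 0.05 over 10799 genes), while 11.4% of all genes fell and 20.7% rose. The 7 were Atp6v0d2 (-0.74), Man2b1 (-0.61), Galc (-0.59), Ctsh (-0.54), Ctsl (-0.54), Hexa (-0.40) and Ppt1 (-0.38). Neu1 (0.85), Atp6v1h (0.57) and Mcoln2 (0.51) rose. The calls of Atp6v0d2, Man2b1, Ppt1, Atp6v1h and Mcoln2 were lost in at least 1 alternative. Scarb2 and Mcoln1, which were already low at 2 h, differed by -0.03 and 0.03 between 2 h and 8 h. With arrays centred on their medians 12 genes fell and 2 rose, and the split over all genes changed from 1235 lower and 2231 higher to 1929 lower and 1505 higher.

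On single arrays, the number of genes at least 2-fold below 0 h in wild type was 3 at 2 h, 4 at 4 h and 6 at 8 h, against 7.67%, 6.93% and 5.65% of all genes. In the IRAK2 KO it was 1, 3 and 3, against 5.38%, 5.0% and 2.95%. The IRAK2 KO counts are over 36 genes, since Mcoln3 was under the floor on both arrays of each pair. The medians at 2, 4 and 8 h were -0.34, -0.40 and -0.52 over 37 genes in wild type and -0.29, -0.32 and -0.32 over 36 genes in the IRAK2 KO. The difference between the genotypes in the response passed the test for 0 of the 37 genes and 0 of 10799 genes (limma). At an unadjusted p under 0.05 it held for 1 of the 37, Mcoln3, and 551 of all genes (5.1%). Mcoln3 was under the floor at 0 h in the IRAK2 KO and could not be seen to fall there, so its difference in response is set by the floor. On simulated data this test called 7 of 100 genes that differed by 1 log2 and 88 of 100 that differed by 2 log2. The simulated noise was a chosen setting and not the spread of these arrays. The counts therefore show only roughly what this test can miss.

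**Figure D2:**
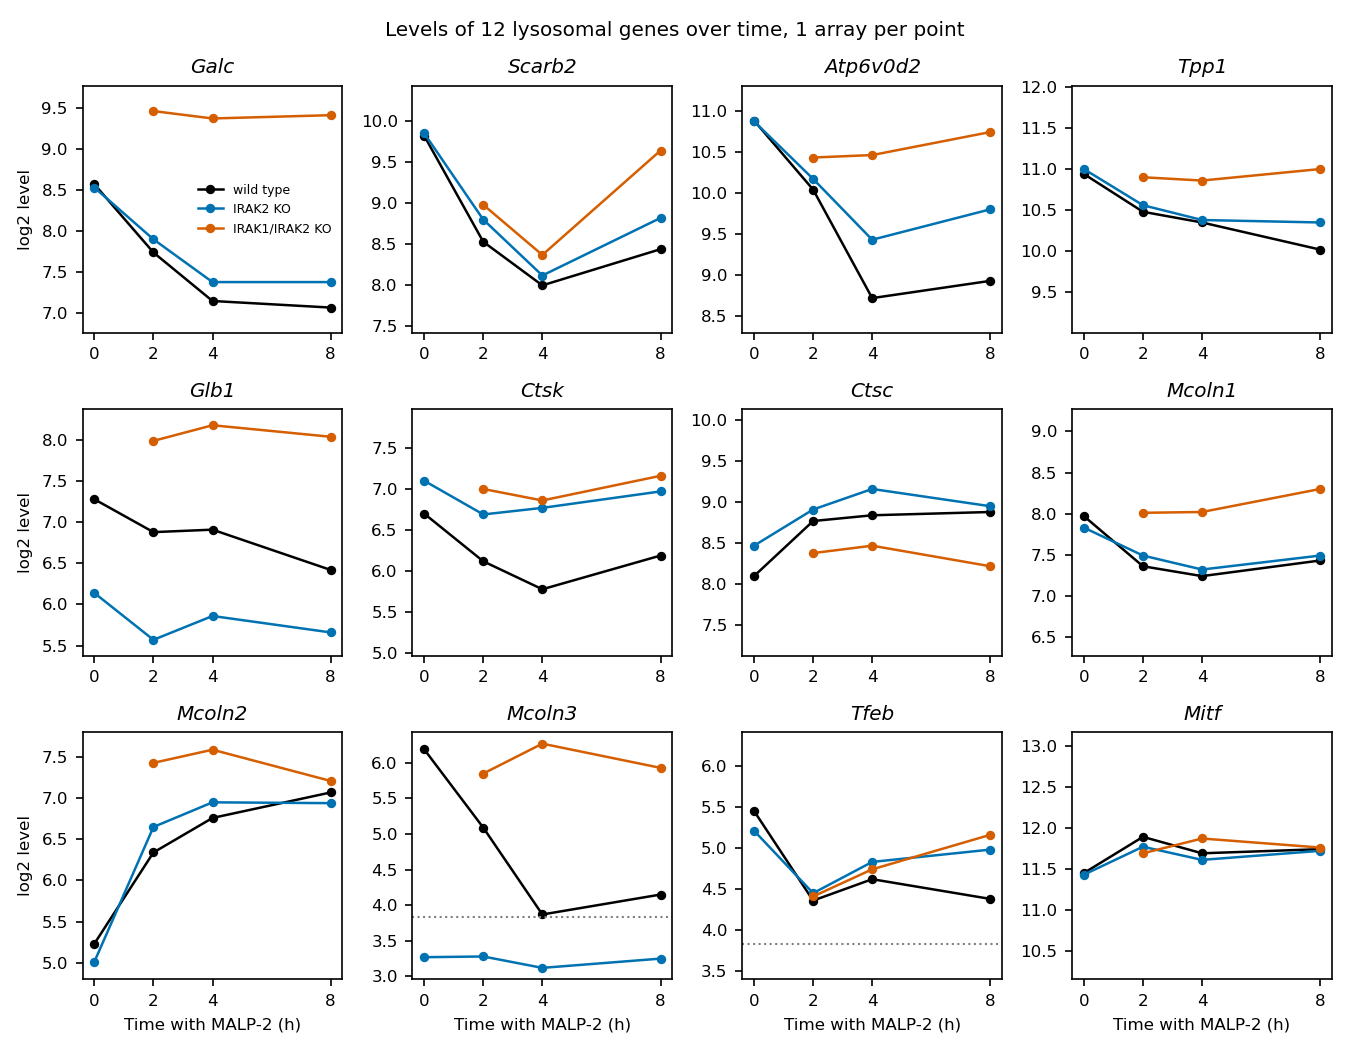
Log2 level (vertical axis) against hours with MALP-2 (horizontal axis) for 12 of the genes, 1 array per point, in wild type (black), IRAK2 KO (blue) and double knockout (orange, 0 h not shown), with the floor of 3.83 dotted where it lies in range. Galc, Tpp1 and Mcoln1 go down in wild type and the IRAK2 KO while the 3 double-knockout points lie above the stimulated points of both, and Mcoln3 lies under the floor in the IRAK2 KO.

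Without IRAK2, 3 of the 37 lysosomal genes differed from wild type. Over 2, 4 and 8 h, Glb1 was lower, Ctsk and Ppt1 were higher, and 34 of 37 genes did not pass the test (limma, adjusted p under 0.05 over 10852 genes). Among all genes 0.35% were lower and 0.415% were higher. Of the 37 genes, 32 differed in the positive direction, as did 5912 of 10852 genes, with a median of 0.11 against 0.02 over all genes. The signs depend on the probeset, since probesets of the same gene differed in sign in 9 of 24 genes. Of 28 tested markers of macrophages and other cells, 1 passed, Ighm of the B cell list. It read 7.92, 6.37, 6.87 and 7.55 from 0 h to 8 h in wild type and 5.87, 5.36, 5.95 and 5.42 in the IRAK2 KO (-1.35 over 2 to 8 h, adjusted p = 0.0366, limma). The mean of the B cell list was 4.26 to 4.75 on the stimulated wild-type arrays and 3.94 to 4.15 on those of the IRAK2 KO, and its part in the lysosomal values was not tested.

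Glb1 read 7.28 in wild type and 6.14 in the IRAK2 KO at 0 h. At 2, 4 and 8 h it read 6.88, 6.91 and 6.42 in wild type and 5.57, 5.86 and 5.66 in the IRAK2 KO, a difference of -1.04 ± 0.13 (adjusted p = 0.0145, limma). All 4 IRAK2 KO values lay below all 4 wild-type values, the unstimulated ones included. Ctsk, known best as the collagenase of osteoclasts, read 6.70, 6.12, 5.78 and 6.19 from 0 h to 8 h in wild type, and 7.10, 6.69, 6.77 and 6.97 in the IRAK2 KO. Its difference was 0.78 ± 0.12 (adjusted p = 0.0263, limma). The Ppt1 difference was 0.62 ± 0.11 (adjusted p = 0.0495, limma), already present as 0.50 at 0 h, but the 4 other Ppt1 probesets above the floor differed by -0.22 to -0.01. When 1 time was left out of the fit, Ctsk and Ppt1 were no longer called whichever time it was, and Glb1 was no longer called without the 2 h or the 4 h arrays.

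Mcoln3 was under the floor on all 4 IRAK2 KO arrays and above it on all 4 wild-type arrays, and did not pass (adjusted p = 0.103, limma). Against the floor, the wild-type mean over 2 to 8 h was at least 1.45-fold higher (0.54 log2), and the wild-type value at 0 h at least 5.11-fold higher (2.35 log2). Ctsl was lower on each IRAK2 KO array than on the wild-type array of the same time, by 0.43 on average over 2 to 8 h, and did not pass either (adjusted p = 0.125, limma). Its second probeset gave 1.12.

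Without both kinases, lysosomal genes were more often higher than lower against wild type. Over 2, 4 and 8 h, 16 of the 37 genes were higher, 1 was lower and 20 did not pass (limma, adjusted p under 0.05 over 10852 genes). Many genes of every kind differed in this comparison, with 23.7% of all genes higher and 17.3% lower, and the median was 0.25 for the lysosomal genes against 0.07 for all. All 3 double-knockout arrays lay above all 3 wild-type arrays for 20 genes, which held for 23.0% of all genes, and below for 1, which held for 17.5%. With arrays centred on their medians the lysosomal counts were again 16 and 1, while the split over all genes changed from 1882 lower and 2575 higher to 2389 lower and 2038 higher. The 5′ minus 3′ values given above move with this comparison, and their part in it was not tested. With the double-knockout 0 h array left out, the double knockout's own response to MALP-2 cannot be read. Against the 0 h mean of wild type and IRAK2 KO, stimulated double-knockout means ran from -0.94 (Hexa) to 2.29 (Mcoln2). Scarb2 (-0.84) and Ctsh (-0.70) also lay below it, and Glb1 (1.36) and Galc (0.86) above it. The stimulated wild-type arrays enter the response to MALP-2, the IRAK2 KO comparison and this one, so the values set side by side are not independent. The calls of Ctsc, Ctsl, Gusb, Grn, Ppt1, Mcoln2 and Atp6v1c1 were lost in at least 1 alternative.

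Of the hydrolases, 6 of 11 were higher and none was lower. Galc read 9.46, 9.37 and 9.41 at 2, 4 and 8 h in the double knockout, against 7.74, 7.15 and 7.07 in wild type, a difference of 2.09 ± 0.14 (adjusted p = 3.11e-05, limma). These values were flat over time and above the 8.57 and 8.53 of the unstimulated wild-type and IRAK2 KO cells. A second Galc probeset above the floor gave -0.22, so the size rests on the brightest probeset. Glb1 read 7.99, 8.18 and 8.04 against 6.88, 6.91 and 6.42, higher by 1.33 ± 0.13 (adjusted p = 0.000187, limma). For Glb1 the genotypes stood in the order IRAK2 KO, wild type, double knockout at each stimulated time, with no overlap between them.

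Ppt1 was higher by 1.09 ± 0.11 (adjusted p = 0.000214, limma), at 8.22, 8.17 and 7.84 against 7.25, 6.98 and 6.74. The 4 other Ppt1 probesets differed by -0.46 to -0.18. Gaa read 9.52, 9.58 and 10.36 against 8.98, 8.84 and 9.30 (0.78, adjusted p = 0.00242, limma), and a second probeset gave 0.47. Gusb read 11.30, 11.31 and 11.27 against 10.57, 10.52 and 10.45 (0.78, adjusted p = 0.000602, limma), and a second probeset gave -0.56. Grn read 12.30, 12.30 and 12.47 against 11.97, 11.69 and 11.59 (0.61, adjusted p = 0.00542, limma), and its 2 other probesets gave 0.48 and 0.52. Of the hydrolases called higher, the further probesets of Gaa and Grn thus went the same way, those of Galc, Ppt1 and Gusb the other way, and Glb1 has none above the floor. Gla, at 0.25, and Man2b1, at 0.14, were not called and had second probesets at 0.74 and 0.25. Hexa had the lowest difference of the group, at -0.32 (95% interval -0.69 to 0.05).

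Of the proteases, Ctsk, Tpp1 and Ctsl were higher and Ctsc was lower. Ctsk read 7.0, 6.86 and 7.16 in the double knockout against 6.12, 5.78 and 6.19 in wild type (0.98 ± 0.12, adjusted p = 0.000397, limma), close to the IRAK2 KO values of 6.69, 6.77 and 6.97. Tpp1 read 10.90, 10.86 and 11 against 10.48, 10.35 and 10.02 (0.64, adjusted p = 0.0052, limma), near the 0 h values of 10.94 and 11 in the other genotypes. Ctsl read 12.35, 12.36 and 11.90 against 11.91, 11.74 and 11.41 (0.52, adjusted p = 0.00486, limma), but its second probeset gave -3.23, the widest disagreement of all the genes. Ctsc, which had risen on MALP-2, read 8.38, 8.47 and 8.22 against 8.77, 8.84 and 8.88, lower by 0.47 ± 0.11 (adjusted p = 0.0104, limma). Its 2 other probesets gave -1.79 and -0.76, and the call was lost without the 4 h arrays.

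All 3 mucolipin channels were higher. Mcoln1 read 8.01, 8.02 and 8.30 against 7.36, 7.24 and 7.43 (0.77 ± 0.11, adjusted p = 0.000938, limma), and a second probeset gave 0.55. Mcoln2 read 7.43, 7.59 and 7.21 against 6.34, 6.76 and 7.07, a gap that was widest at 2 h (0.69 ± 0.17, adjusted p = 0.0114, limma). Mcoln3 read 5.85, 6.27 and 5.93 against 5.09, 3.87 and 4.15, near the unstimulated wild-type value of 6.19 (1.65 ± 0.26, adjusted p = 0.00144, limma). For Mcoln1 and Mcoln3 the stimulated wild-type values were below 0 h, and for Mcoln2 they were above it.

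Scarb2 was the membrane protein gene that was higher. It read 8.98, 8.37 and 9.64 against 8.53, 8.00 and 8.44 (0.67 ± 0.17, adjusted p = 0.012, limma), with its lowest value at 4 h as in the other genotypes. These double-knockout values all lay below the 0 h values of 9.82 in wild type and 9.85 in the IRAK2 KO. Lamp1 (0.04), Lamp2 (0.24) and Cd68 (-0.11) did not pass, and the 3 other Lamp2 probesets gave 0.15, 0.68 and 0.57. Of the V-ATPase genes, Atp6v0d2 read 10.43, 10.46 and 10.74 against 10.04, 8.72 and 8.93 (1.32 ± 0.24, adjusted p = 0.00304, limma), and a second probeset gave 1.18. Atp6v1a read 11.30, 11.24 and 11.34 against 10.83, 10.57 and 10.64 (0.61, adjusted p = 0.00267, limma), but a second probeset, at a mean level of 8.90, gave 0.04. Atp6v1c1 read 11.50, 11.56 and 11.54 against 10.99, 10.90 and 10.97 (0.58, adjusted p = 0.00271, limma), and its 2 other probesets gave 0.65 and 0.13. None of the MiT/TFE factors passed, with Tfeb at 0.32 (95% interval -0.03 to 0.66), Tfe3 at 0.02 (-0.25 to 0.28) and Mitf at 0.00 (-0.27 to 0.26).

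**Figure D3:**
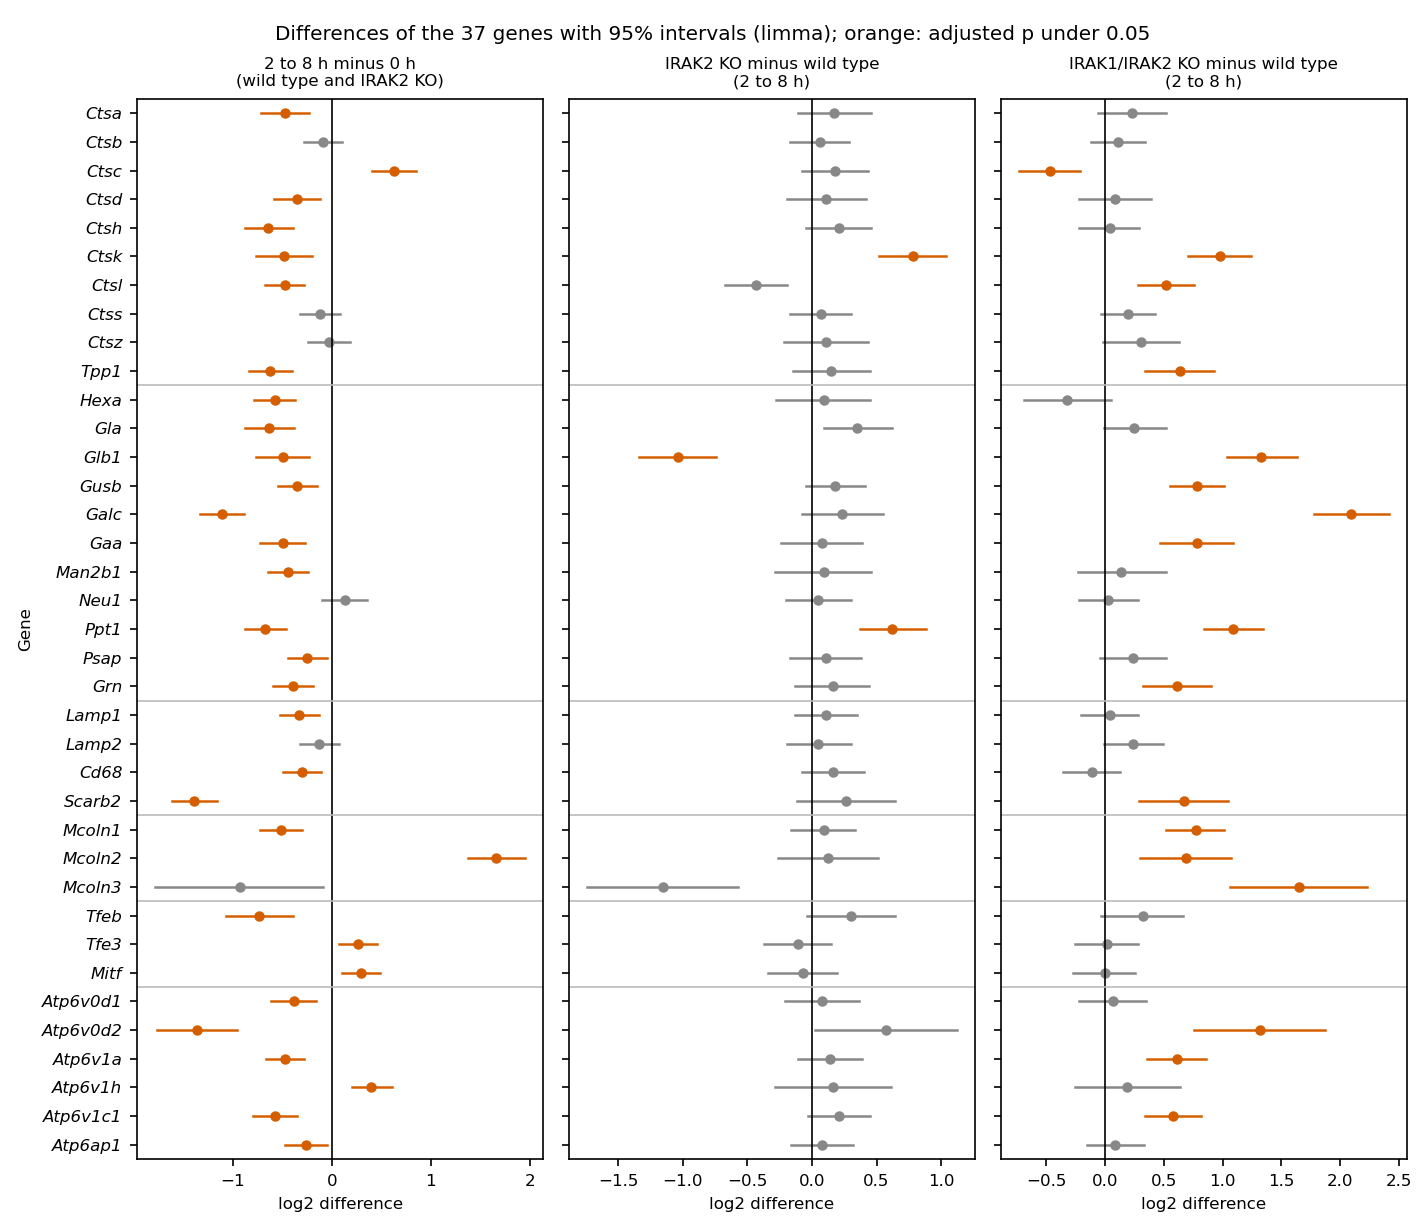
Log2 difference (horizontal axis) of each of the 37 genes (rows) with its 95% interval from limma, for stimulated minus 0 h arrays, IRAK2 KO minus wild type and double knockout minus wild type, in orange where the adjusted p was under 0.05. Orange points lie mostly left of 0 in the first panel (26 lower, 5 higher), number 3 in the second and lie mostly right of 0 in the third (16 higher, 1 lower).

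On single arrays, 3, 6 and 7 of the 37 genes were at least 2-fold above wild type at 2, 4 and 8 h in the double knockout, against 4.8%, 6.68% and 5.81% of all genes, and none was 2-fold below. The 7 at 8 h were Atp6v0d2, Gaa, Galc, Glb1, Mcoln3, Ppt1 and Scarb2. The medians of the 37 genes were 0.20, 0.37 and 0.49. A change of the difference with time passed the test for 0 of the 37 genes in either knockout (limma, slope on log2 time), and for 0.00921% of all genes in the IRAK2 KO and 0.138% in the double knockout. At an unadjusted p under 0.05 it held for 6 of the 37 genes in the double knockout and 0 in the IRAK2 KO, and for 1625 and 537 of 10852 genes.

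Against the IRAK2 KO, which shares its double-knockout arrays with the comparison above, 14 genes were higher and 1 was lower in the double knockout, where 22.1% of all genes were higher and 16.7% lower. The median was 0.13 against 0.06 for all genes. Among the largest differences were Glb1 (2.38 ± 0.13, adjusted p = 1.65e-05, limma) and Galc (1.86 ± 0.14, adjusted p = 6.38e-05, limma). Mcoln3, under the floor on all 3 IRAK2 KO arrays, was at least 4.54-fold higher when set against the floor (2.18 log2). The test was of the difference without the floor, 2.80 log2 (adjusted p = 0.000153, limma), which rests on IRAK2 KO values under the floor. Ctsk, at 0.20, did not pass, and Ctsc was again lower (-0.65, adjusted p = 0.00264, limma). Without the 4 h arrays 6 genes were higher, and with centred arrays the split over all genes changed from 1816 lower and 2396 higher to 2216 lower and 1926 higher.

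Probesets of the same gene were compared for the 24 genes with at least 2 above the floor. They shared a sign in 22 genes for the response to MALP-2 and in 15 genes for IRAK2 KO minus wild type. For double knockout minus wild type it was 13 genes, and the other 11 were Atp6v1h, Ctsa, Ctsb, Ctsh, Ctsl, Ctsz, Galc, Gusb, Neu1, Ppt1 and Psap. The median range between probesets of a gene was 0.23, 0.15 and 0.52 in the same order. Of the 16 genes called higher in the double knockout, Ppt1, Gusb and Ctsl were no longer called higher with the mean of all probesets, at -0.01, 0.11 and -1.35. Galc was still called with that mean, at 0.67 in place of 2.09. The other 12 have no further probeset of opposite sign above the floor, and 4 of them, Glb1, Ctsk, Mcoln2 and Mcoln3, have no further probeset above it.

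**Figure D4:**
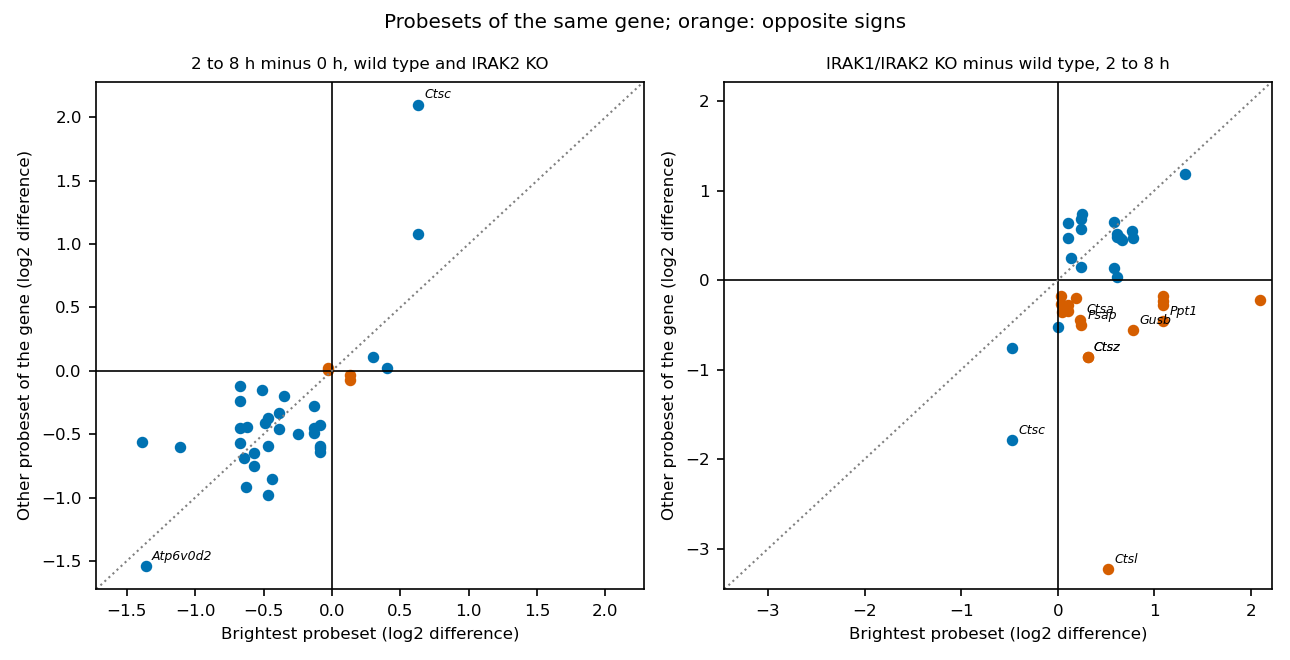
Log2 difference of each further probeset above the floor (vertical axis) against the brightest probeset of its gene (horizontal axis), for stimulated minus 0 h (left) and double knockout minus wild type (right), with the line of equality dotted and opposite signs in orange. On the left 22 of 24 genes are of one sign, and Ctsc lies furthest from the line, at 2.10 against 0.63. The points scatter on the right, where 11 of 24 genes have opposite signs and Ctsl lies at -3.23.

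Other genes of the lysosome, from lists drawn up by role, were read beside the 37. Beside the counts below, 28.2% of all genes fell and 18.9% rose on MALP-2, and 23.7% were higher and 17.3% lower in the double knockout than in wild type. Of 32 genes on the list of other acid hydrolases, 22 fell and 3 rose on MALP-2, with a median of -0.45. The list also holds genes that are not acid hydrolases of the lysosome, such as Hgsnat, Npc2, Gm2a, Gba2 and Sumf1. The largest falls were in Pla2g15, a phospholipase (-1.78), Sgsh, a sulfatase that acts on heparan sulfate (-1.29), and Lgmn, the asparaginyl endopeptidase legumain (-1.28). The acid phosphatases Acp5 (1.66) and Acp2 (1.12) and the ribonuclease Rnaset2a rose, the last by at least 1.12 log2 (2.18-fold), since both of its 0 h values were under the floor. Without both kinases, 17 of 33 were higher than in wild type and 4 lower. Ctse, an aspartic protease, read 7.65, 7.18 and 6.25 in the double knockout and was under the floor on all 3 wild-type arrays, so that it was at least 9.15-fold higher (3.19 log2). Hgsnat, which acetylates heparan sulfate (2.50), and Arsb, a sulfatase (2.30), were also higher. Acp5 (-2.13) and Acp2 (-0.54) were lower, as was Rnaset2a, by at least 1.44 log2 (2.71-fold), with 2 of its 3 double-knockout values under the floor.

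Of 24 other membrane proteins and transporters, 15 fell and 2 rose on MALP-2. Slc46a3 (-3.20), a solute carrier, the endolysosomal channel Tpcn1 (-1.64) and the sialic acid exporter Slc17a5 (-1.50) fell most, and the chloride exchanger Clcn7 (0.92) and the peptide transporter Slc15a3 (0.62) rose. Against wild type, 9 were higher in the double knockout, led by Slc17a5 (1.38), Laptm4b (0.99) and Tpcn1 (0.83), and Slc15a3 (-0.53) and the metal transporter Slc11a1 (-0.41) were lower. Of 12 other V-ATPase subunits, 4 fell on MALP-2, led by Atp6v0a1 (-0.59), Atp6v1b2 (-0.57) and Atp6v1d (-0.45), and Atp6v1e1 (0.60) and Atp6v0a2 (0.34) rose. Of the 12, 3 were higher in the double knockout, Atp6v1b2 (0.62), Atp6v1d (0.47) and Atp6ap2 (0.31), and Atp6v1e1 (-0.85) and Atp6v1f (-0.70) were lower. Each of these counts of 12 lies near the share over all genes.

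Of 17 genes that sort enzymes to the lysosome, 5 fell and 1 rose on MALP-2. Sort1, the receptor sortilin (-0.66), and the adaptor Gga2 (-0.55) fell most, and M6pr, a mannose 6-phosphate receptor (0.42), rose. Higher in the double knockout were 5, led by Gnptab (0.78), which makes the mannose 6-phosphate tag, and Ap1s1 (-0.76) was lower. The 5 of 17 that fell and the 5 that were higher lie near the shares over all genes. Of 16 genes of mTORC1 and the control of the MiT/TFE factors, 7 fell on MALP-2, led by the GTPase Rragd (-1.95), Fnip2 (-1.93) and its partner Flcn (-0.93), and Tfec (1.66), a further member of the MiT/TFE family, rose. In the double knockout 6 were higher, led by Rragd (2.04), Flcn (0.78) and Rragc (0.57), and Tfec (-0.97), Lamtor4 (-0.86) and Lamtor2 (-0.58) were lower. Of 4 cystatins, inhibitors of cathepsins, Cst7 (at least 0.54, with both 0 h values under the floor) and Stfa3 (0.95) rose and Cst3 (-0.34) fell on MALP-2, and Stfa3 (-1.13) and Cst3 (-0.65) were lower in the double knockout. None of these genes passed the test for IRAK2 KO minus wild type (limma). At an unadjusted p under 0.05, 10 of 106 genes did (9.43%), against 13.6% of all genes. They were 4 genes of the hydrolase list, 3 membrane proteins or transporters, 1 V-ATPase subunit, 1 gene of the mTORC1 list and 1 cystatin.

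Markers of other cells were read beside the double-knockout values. Of 7 macrophage markers, Cd14 (-1.85), Itgam (-0.78), Adgre1 (-0.69) and Fcgr1 (-0.56) were lower than in wild type and Mertk (0.54) was higher. The mean of the list was 8.85 to 9.24 on the double-knockout arrays and 9.32 to 9.52 on the stimulated wild-type arrays. Of 4 osteoclast-linked markers tested, Itgb3 (2.67) and Dcstamp (0.55) were higher and Acp5 was lower, and Ocstamp was under the floor throughout. Both tested markers of eosinophils and mast cells, Siglecf (1.19) and Cpa3 (1.2), were higher. The mean of that list was 4.09 to 4.37 on the double-knockout arrays and 3.76 to 3.84 on the stimulated wild-type arrays. Kit read 4.03, 4.34 and 3.68 in the double knockout and was under the floor on all wild-type arrays, and Prg2, Epx, Ccr3, Mcpt4 and Ms4a2 were under it throughout. Of the tested markers, 2 of 3 for neutrophils, 1 of 3 for B cells and 1 of 5 for mesothelium and stroma were lower, and 1 of 2 for dendritic cells was higher. Neither marker of T and NK cells passed. The part of these differences in the lysosomal values was not tested.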

How the data were processed

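Total RNA was isolated with Trizol and labelled by the NuGEN Ovation system for Affymetrix arrays, per the labels' protocols. The deposited log2 values, for 45101 probesets on 12 arrays, were made by the authors with RMA, per the submitters' processing notes, which corrects background, equalizes the distributions of the arrays and summarizes probes. RMA was not redone, and no version of it is known here. Of the probesets, 34958 carry 1 symbol, 932 several and 9211 none. The symbols of 34754 were updated, and 9010 of 18193 genes have more than 1 probeset.

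Additive models were fitted with limma 3.58.1 (R 4.3.3) and adjusted by Benjamini-Hochberg over every gene whose mean reached the floor of 3.83. The genotype fit took the 9 stimulated arrays with terms for genotype and time (4 residual degrees of freedom). The response fit used the 8 arrays of wild type and IRAK2 KO, again with both terms (3 degrees of freedom). Genotype slopes on log2 time had 2 degrees of freedom. A fit of the genotype difference in the response was added after the data were seen. On simulated data 95 of 100 genes shifted by 1 log2 were called in either comparison with wild type and 97 of 100 in the response, with 15 false calls for the IRAK2 KO, 8 for the double knockout and 2 for the response. The number of arrays limits the precision.

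The members and lists were chosen with earlier results of these data known. Every member is named, and of each other list up to 3 called genes per direction. Alternatives were the mean of all probesets of a gene, leaving out probesets marked _x_at and _s_at, centring arrays on their medians, other filters, a trend in the prior, leaving out each time, other sets of arrays and all 12 arrays.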

Additional observations from a re-analysis of the deposited data

How the results depend on the processing

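The genotype fits set arrays of the same time against each other through the time term. With all 12 arrays in the response to MALP-2, 1 gene fell and 2 rose, and 17 genes turned positive: Ctsa 1.38, Ctsd 1.70, Ctsk 0.82, Ctsl 0.74, Hexa 1.07, Gla 0.63, Glb1 0.77, Gusb 0.01, Gaa 0.71, Man2b1 0.41, Psap 1.74, Lamp1 0.45, Cd68 1.52, Mcoln1 0.52, Atp6v0d1 1.03, Atp6v1a 0.44 and Atp6ap1 1.83. On the double-knockout 0 h array, 6 of the 37 genes lay over 4 log2 below all 3 stimulated arrays. Apart from this setting, 23 of the 31 response calls held in every alternative in which the gene was tested. Of these, Tfeb had a mean under the stricter filter, the floor plus 1 log2, and was not tested with it. Whichever single time was left out, 27 of the 31 calls held.

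With the mean of all probesets, double knockout minus wild type became -1.35 for Ctsl, -0.47 for Ctsz and -0.01 for Ppt1. Against the IRAK2 KO it became -1.70 for Ctsl, -0.44 for Ctsz, -0.13 for Gusb and -0.03 for Ppt1, and Ctsc from 2 h to 8 h became -1.45. Without _x_at and _s_at probesets, Ctsz was at -0.86 against wild type and -0.80 against the IRAK2 KO, and Ctsh at -0.36 against wild type.

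Among the 37 genes, the lower calls in the double knockout against wild type numbered 3 with the mean and 3 without those probesets, and 0 to 1 with 1 time left out. Against the IRAK2 KO they numbered 5 with the mean, 3 without those probesets, 3 with centred arrays, 3 with a trend, 2 with the 0 h arrays added and 1 to 2 with 1 time left out. The higher calls there numbered 9 with the mean and 6 to 12 with 1 time left out, and against wild type 12 to 18. The response had 3 higher calls with the mean. From 2 h to 8 h the lower calls numbered 12 with centred arrays and 11 with a trend. For IRAK2 KO minus wild type the lower calls numbered 2 with a trend, 2 with only these genotypes and 0 to 1 with 1 time left out. The higher calls numbered 1 each with the mean, without those probesets and with centred arrays, and 0 with any time left out.

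Over all genes, IRAK2 KO minus wild type had 38 lower and 45 higher calls, against 258 and 295 with only these genotypes, 70 and 73 with the 0 h arrays added, and 6 and 0 without the 4 h arrays. The response had 291 and 703 with all 12 arrays. In the double knockout minus wild type, 10 of 17 calls held in every alternative in which the gene was tested. They were Atp6v0d2, Atp6v1a, Ctsk, Gaa, Galc, Glb1, Mcoln1, Mcoln3, Scarb2 and Tpp1. Of these, Mcoln3 had a mean under the stricter filter, the floor plus 1 log2, and was not tested with it. The cause of the changes between alternatives was not tested.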
